A study of Mus musculus with 21 samples.

Results

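The 9 genes described here, Trpm1, Ly6a, Aox3, Crxos, Nkx1-2, Tlx2, Pglyrp1, Aspa and Pla2g4e, were chosen from the 39396 genes of a mouse RNA sequencing table because their counts were far lower in every other culture than in ground state embryonic stem cells. The same counts chose them, so their falls from ground state are given as a description, with no test. The choice had no numerical threshold. All 9 passed the filter on low counts, but Aox3, Tlx2, Pglyrp1 and Aspa passed only through their ground state libraries, and 5 of 9 passed when the 15 libraries outside ground state were filtered alone.

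The series held 21 libraries of mouse pluripotent cells, 3 for each of 7 groups, from the embryonic stem cell lines A2 and D3. Ground state cells of both lines were kept in serum medium (DMEM with 10% FBS) with LIF at 1000 U/mL and 2i, a name used for a pair of inhibitors of the kinases MEK and GSK3, which the labels do not spell out. Naive cells of both lines came from ground state cells by taking away 2i for 4 days. EPL cells (early primitive ectoderm-like) of both lines came from ground state cells by 4 days in serum medium with LIF at 330 U/mL and L-proline at 400 uM. EpiSCs (epiblast stem cells) were sampled in A2 only: A2 cells were implanted into a pseudopregnant mouse, isolated after implantation and kept in serum replacement medium with activin A and bFGF. No genetic change is named for any group, and whether the 3 libraries of a group came from separate cultures is not given, so a p-value here reflects only how far these libraries scatter, which may be technical. Total counts ran from 15320599 to 23490527 per library. Pluripotency markers (6 genes) summed to 1580 to 4900 CPM (counts scaled to a common library size) in every library. A list of 10 fibroblast and feeder markers summed to 5.27 to 12.5 CPM in the 18 libraries of the other groups and to 2290, 2160 and 2720 CPM in EpiSC libraries 1, 2 and 3, where none of the 10 was at 0. In each of the other groups 1 to 4 of these 10 markers had no count. Every EpiSC value below therefore comes from libraries with RNA of fibroblast markers, whose part in the results was not tested. Primitive endoderm markers (10 genes) summed to 190 to 281 CPM in EpiSC libraries and to 4.21 to 54.6 CPM elsewhere. Ground and naive markers (6 genes) summed to 806 to 1000 CPM in EpiSC libraries, the lowest of the 7 groups. Of these, Klf4 (141 CPM) and Tbx3 (84.7) stood above A2 EPL cells (58.9 and 21.2), and the others below. EPL and formative markers (4 genes) were also lowest in EpiSC libraries, at 135 to 139 CPM. EpiSC markers (8 genes) summed to 291 to 460 CPM there and to 313 to 341 in D3 EPL libraries. Lefty2 was the largest part of both sums, at a mean of 341 CPM in EpiSCs and 194 in D3 EPL cells, and had 117 in A2 ground cells. Fgf5 and Otx2 were lower in EpiSCs than in D3 EPL cells, and the other markers of this list higher.

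Ground state medium holds embryonic stem cells close to the early epiblast of the blastocyst. MEK inhibition lowers ERK signalling, and GSK3 inhibition stabilises beta-catenin, which relieves repression by the TCF factors at their target genes. When the inhibitors are removed the cells leave this state, and proline or activin with bFGF takes them towards later epiblast. The 9 genes belong to no single pathway. Trpm1 encodes a cation channel known from melanocytes and retinal bipolar cells. Ly6a encodes the GPI-anchored surface protein Sca-1, a marker of blood stem cells that is also carried by many fibroblasts. Aox3, Aspa and Pla2g4e encode enzymes, Crxos, Nkx1-2 and Tlx2 encode homeodomain proteins, and Pglyrp1 encodes a secreted protein that binds bacterial peptidoglycan.

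Compared per kilobase of exon, Ly6a was the most abundant of the 9 in ground state, at 46.5 RPKM (CPM divided by exon length in kilobases) in A2 and 93.9 in D3. Aspa was the least abundant, at 1.38 RPKM in A2 and 1.31 in D3. The other 7 lay between 2.27 and 9.2 RPKM in A2 and between 2.59 and 19.5 in D3.

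Promoter windows, 250 bases before to 50 bases after an annotated start, were available from RefSeq (GRCm38.p6) for 7 of the 9 genes, as 10 windows of 300 bases. Ly6a and Tlx2 had no entry. Both strands were searched for 8 motifs. For TCF/LEF factors, which act with beta-catenin, the letters were ATCAAAG. For MITF they were TCATGTG, known as the M-box. For the related TFE factors the E-box CACGTG was used. The STAT motif was TTCNNNGAA, the ESRRB motif was AAGGTCA and the OCT motif was ATGCAAA. The GC box (GGGCGG) and the TATA element (TATAAA) were searched as well. The 4 windows that held letters of a named transcription factor's motif are shown, with those letters in capitals, to let the matches be seen in place.
Trpm1, at the gene model's start (plus strand, chr7:64153585-64153884): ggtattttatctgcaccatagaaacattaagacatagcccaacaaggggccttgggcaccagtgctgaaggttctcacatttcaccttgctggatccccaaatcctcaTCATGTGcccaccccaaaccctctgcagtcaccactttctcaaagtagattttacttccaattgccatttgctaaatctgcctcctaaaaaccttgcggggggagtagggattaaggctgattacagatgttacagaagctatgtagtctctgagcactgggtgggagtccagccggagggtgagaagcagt
Trpm1, at a second start inside the gene (plus strand, chr7:64185209-64185508): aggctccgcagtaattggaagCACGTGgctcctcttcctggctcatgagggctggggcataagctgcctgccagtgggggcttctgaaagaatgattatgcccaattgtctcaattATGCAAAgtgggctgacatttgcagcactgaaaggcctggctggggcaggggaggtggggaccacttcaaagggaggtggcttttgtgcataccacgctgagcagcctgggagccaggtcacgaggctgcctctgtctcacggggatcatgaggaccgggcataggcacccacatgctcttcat
Crxos, at the last of its 3 starts (plus strand, chr7:15901396-15901695): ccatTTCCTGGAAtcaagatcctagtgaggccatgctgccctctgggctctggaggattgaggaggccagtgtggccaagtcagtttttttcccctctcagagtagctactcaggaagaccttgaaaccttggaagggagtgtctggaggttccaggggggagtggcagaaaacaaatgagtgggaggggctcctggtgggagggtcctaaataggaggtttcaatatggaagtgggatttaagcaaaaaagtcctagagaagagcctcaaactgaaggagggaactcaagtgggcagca
Nkx1-2 (minus strand, chr7:132599588-132599887): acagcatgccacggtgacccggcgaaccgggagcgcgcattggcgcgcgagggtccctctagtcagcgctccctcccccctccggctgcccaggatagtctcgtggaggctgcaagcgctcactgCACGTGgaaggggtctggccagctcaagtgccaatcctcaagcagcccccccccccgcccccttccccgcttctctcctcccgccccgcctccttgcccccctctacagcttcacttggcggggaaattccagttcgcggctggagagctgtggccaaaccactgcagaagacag

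The first Trpm1 window held the M-box 142 to 136 bases before the start, and 3.77% of the 32851 promoter windows of this table held it. The second Trpm1 window held CACGTG (7.15% of all windows) and ATGCAAA (4.63%). The Crxos window held a STAT match (8.3%), and Nkx1-2 held CACGTG and, on the other strand, 2 GC boxes (35.7%). No member window held ATCAAAG, which 3.73% of all windows held, or AAGGTCA, which 4.72% held. Matches to different motifs did not overlap, whereas 2 of the 3 TATA matches of Aspa overlapped each other. By CpG content 7 of the 10 windows lay below the median of all windows (a ratio of observed to expected CpG of 0.384), the third Crxos window held no CpG, and Nkx1-2 stood apart with 21 CpG, a ratio of 0.643 and 67.3% GC. These matches are descriptions of letters in these windows and show no binding.

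Trpm1 (GRCm38 chr7:64153835-64269775, plus strand) had the highest CPM of the set in ground state: 140, 119 and 140 in A2 and 182, 178 and 179 in D3. In naive libraries it was 2.88, 3.33 and 2.49 CPM in A2 and 0.457, 0.61 and 0.554 in D3. In EPL libraries it was 5.2, 1.73 and 1.33 CPM in A2 and 2.01, 1.99 and 1.5 in D3. EpiSC libraries had 0.873, 0.782 and 0.584 CPM. Both ground groups were far above all others, A2 EPL library 1 was well above the other A2 EPL libraries, and the D3 naive group had the lowest mean of the 7, with 1 library (0.61 CPM) inside the EpiSC range. By summed counts, ground state was 46-fold above naive in A2 (95% counting interval 39.5 to 53.9) and 332-fold above in D3 (231 to 496). Like every interval given here, these cover counting error only. In these bulk samples fewer cells with a transcript and less RNA per cell cannot be told apart. The gene hosts Mir211 in an intron, and the precursor had 2 counts over all libraries.

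Ly6a (chr15:74994877-74998031, minus strand) had 60.6, 56.2 and 51.5 CPM in A2 ground libraries and 120, 124 and 95.5 in D3. Naive libraries had 0.807, 0.833 and 0.78 CPM in A2 and 1.37, 0.942 and 0.72 in D3. EPL libraries had 0.295, 0.279 and 0.181 CPM in A2, while in D3 a single count was found in library 2 and none in libraries 1 and 3. EpiSC libraries had 7.35, 8.14 and 10.8 CPM, above every naive and EPL library and below every ground library. D3 cells had 6778 counts in ground state against 1 in EPL cells, a ratio of 6530 (95% interval 1170 to 258000). In A2 the ratio of ground to EPL was 223 (130 to 419), and that of ground to EpiSC was 6.4 (5.88 to 6.99). Reads of the related genes Ly6c1 and Ly6i may be shared with Ly6a, and how the counting treated such reads is not given.

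Among the enzymes, Aox3 (aldehyde oxidase 3; chr1:58113130-58200698, plus strand) had 15.2 to 24.7 CPM in the 6 ground libraries and at most 0.414 CPM in any other. Its ground level was 310-fold above naive in A2, on 4 naive counts (95% interval 121 to 1140), and 82-fold above in D3 (46.8 to 159). Aspa (aspartoacylase, which splits N-acetylaspartate into acetate and aspartate; chr11:73304992-73329596, minus strand) had 6.29 to 9.03 CPM in ground libraries. It kept 5.85% of that level in A2 naive cells, 4.08% in D3 naive cells and 9.45% in EpiSCs, while D3 EPL cells had 1 count over 3 libraries.

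Pla2g4e (a cytosolic phospholipase A2 that also makes N-acylated phospholipids; chr2:120166412-120245335, minus strand) had 16.6, 16.4 and 14.3 CPM in A2 ground libraries and 21.2, 23.1 and 20.5 in D3. Naive libraries had 3.86, 2.35 and 3.51 CPM in A2 and 3.6, 3.49 and 3.16 in D3. EPL libraries had 0.709, 1.06 and 0.966 CPM in A2 and 0.648, 1.24 and 1.03 in D3, and EpiSC libraries had 0.322, 0.391 and 0.125. The 4 stages of A2 did not overlap and stepped down in this order, as did the 3 stages of D3. With 20.5% of its ground level left in A2 naive cells and 15.8% in D3 naive cells, Pla2g4e was not near silence there. Its exons share 153 bases with Gm13997, which had 18 counts over all libraries.

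Of the homeobox genes, Crxos (chr7:15882617-15904020, plus strand) had 22.7, 20.2 and 20.7 CPM in A2 ground libraries and 57.5, 60.2 and 55 in D3. All 12 naive and EPL libraries lay between 0.147 and 0.413 CPM. EpiSC libraries had 2.76, 2.78 and 2.71 CPM, above those 12 and below every ground library. The gene lies 2649 bases from Crx, a retinal homeobox gene on the other strand whose counts were at most 2 in any group.

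Nkx1-2 (chr7:132594878-132599637, minus strand), an embryonic NK-family gene, had 20.2, 12.4 and 18.2 CPM in A2 ground libraries and 15.8, 18.3 and 16 in D3. Naive libraries had 0.049 to 0.277 CPM, EPL libraries 0 to 0.385 CPM, and EpiSC libraries 1.84, 2.5 and 2.25. The 2 lines overlapped in ground state, and EpiSCs again lay between ground state and the rest. The gene lies within the long model of Fgfr2 (chr7:130162451-133123350), sharing no exon bases with it. It shares 541 exon bases with the antisense gene Gm16764, which had 1 count in all libraries. The library kit does not mark strand, so reads of that pair cannot be told apart.

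Tlx2 (chr6:83068324-83070293, minus strand), known from the enteric nervous system, had 16.6, 14.4 and 12.7 CPM in A2 ground libraries and 6.79, 8.13 and 8.7 in D3. Naive libraries had 0.111 to 0.346 CPM. Of the 6 EPL libraries only A2 library 3 had a count, and it was a single one. Against 3 counts over the group as the floor, D3 ground was at least 150-fold higher than D3 EPL. EpiSC libraries had 0.184, 0.196 and 0.333 CPM, within the range of naive libraries. Pglyrp1 (chr7:18871331-18890459, plus strand) had 7.68 to 13.7 CPM in ground libraries and at most 0.332 CPM elsewhere, with no count in the 3 A2 EPL libraries, where ground state was at least 151-fold higher.

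**Figure D1:**
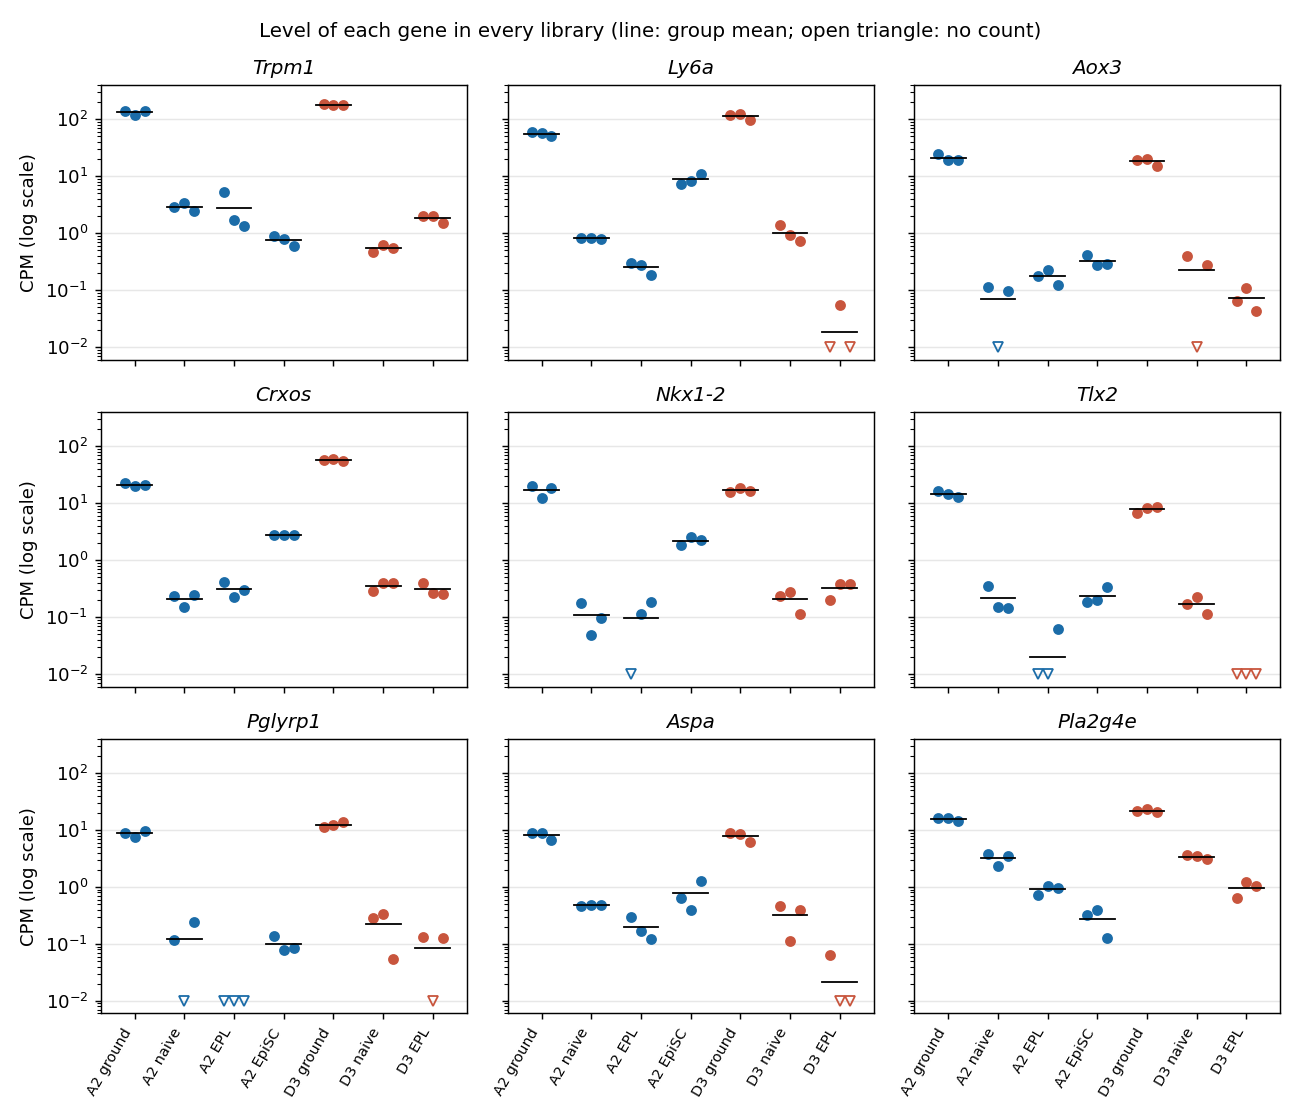
CPM on a log scale (vertical axis) of each gene in every library, by group (horizontal axis), blue for A2 and red for D3. Points are libraries, black lines are group means, and open triangles at the bottom are libraries with no count; ground libraries stand above all others in each panel, and EpiSC libraries stand above naive and EPL libraries for Ly6a, Crxos and Nkx1-2.

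The label of near silence held for most of the set and not for all of it. Fitted over both lines, the median log2 difference from ground state was -6.46 in naive cells and -6.86 in EPL cells, and it was -5.78 in EpiSCs, against medians of 0.01, 0 and 0.04 over all 16575 genes tested. In all 9 genes no ground library overlapped a library of another stage of the same line. Because the genes were picked for this, nothing is read from that count. Over all tested genes 31.8% were lower in naive cells, 33.2% in EPL cells and 34.1% in EpiSCs at an adjusted p below 0.05 (edgeR), 31.7%, 33.1% and 39.1% were higher, and 63.5%, 66.3% and 73.2% were called in either direction. Ranked by the fitted naive difference, the set ran from rank 5 (Aox3) to rank 275 (Pla2g4e) among those genes. Apart from Pla2g4e and Aspa, every gene kept 2.18% or less of its ground level in naive and EPL cells of the same line. In EpiSCs, Ly6a kept 15.6%, Crxos 13% and Nkx1-2 13%, so these were not near silence there. Aspa kept 9.45%, but its log2 difference of -3.4 was -4.01 without EpiSC library 3, which had 1.29 CPM against 0.643 and 0.391 in libraries 1 and 2.

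**Figure D2:**
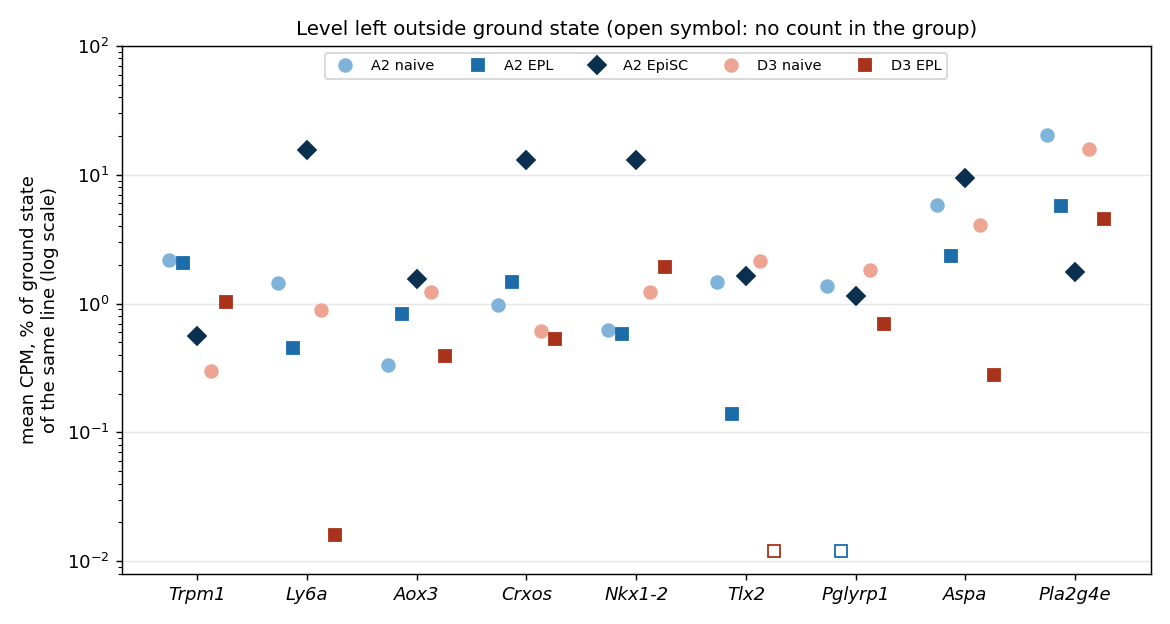
Mean CPM left in each non-ground group as a percentage of the ground state mean of the same line (vertical axis, log scale) for the 9 genes (horizontal axis). Open symbols at the bottom are groups with no count; Pla2g4e stands highest in naive cells (20.5% and 15.8%), and Ly6a, Crxos and Nkx1-2 stand highest in EpiSCs (13% to 15.6%).

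The step from naive to EPL cells could be tested for 3 of the 5 members that passed the filter without their ground state libraries. Ly6a and Pla2g4e fell further, and Trpm1 rose. Crxos (log2 0.17 ± 0.24) and Nkx1-2 (0.3 ± 0.54) are given with no test, as outside ground state they reached the filter only through EpiSC libraries. Over all 16575 tested genes 27.1% were higher and 24.1% lower in EPL cells, 51.2% in all (edgeR quasi-likelihood test, Benjamini-Hochberg adjusted p below 0.05). The EPL columns helped to choose the genes, so a deep EPL value, as in Ly6a, is in part a product of that choice. In a fit of only the 12 libraries compared, the same 3 genes were called.

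Pla2g4e had the most even step, with a log2 difference of -1.8 ± 0.17 (SE; adjusted p = 1.2e-08 by edgeR). It was -1.81 ± 0.24 in A2 (adjusted p = 6.39e-06) and -1.78 ± 0.23 in D3 (adjusted p = 2.17e-06) in the same edgeR fit. Ly6a fell by 3.53 on the log2 scale (SE 0.43, edgeR adjusted p = 4.86e-07), with 13 EPL counts against 47 naive counts in A2 and 1 against 54 in D3. The gap between its D3 and A2 steps was -3.76 ± 1.05, which rests on 1 EPL count in D3 and 13 in A2. It is given with no test.

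The other 4 members entered the fit only through their ground state libraries, so between other groups they are given as counts with no test. Tlx2 went from 12 naive counts to 1 EPL count in A2 and from 9 to 0 in D3. Aspa went from 28 to 10 and from 17 to 1, Pglyrp1 from 7 to 0 and from 12 to 5. Aox3 stood at 4 naive and 9 EPL counts in A2 and at 12 and 4 in D3.

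The rise of Trpm1 came from D3. Over both lines its log2 difference was 0.82 ± 0.27 (edgeR adjusted p = 0.0151), and without A2 EPL library 1, the one with 5.2 CPM, it was 0.4 and no longer passed. In D3 alone it was 1.73 ± 0.45 (edgeR adjusted p = 0.0035), with no overlap between 3 EPL and 3 naive libraries. In A2 it was -0.08 ± 0.29 (edgeR adjusted p = 0.869), and the difference between lines was 1.8 ± 0.54 (edgeR adjusted p = 0.0306).

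EpiSCs held more of 3 of these transcripts than A2 naive cells did. By test Ly6a was higher, and Trpm1 and Pla2g4e lower. Crxos and Nkx1-2 were higher as well, with at most 5 and 3 counts in an A2 naive library. Outside ground state they reached the filter only through EpiSC libraries, so their values are a description. Over all tested genes 70.3% were called between EpiSCs and naive cells (39.1% higher, 31.2% lower), so the count itself is no result. Nkx1-2 differed most, by 4.34 ± 0.42 on the log2 scale, on 158 counts against 6. Crxos was higher by 3.7 ± 0.21, on 196 counts against 12, and Ly6a by 3.43 ± 0.21 (edgeR adjusted p = 3.27e-12). Pla2g4e fell by 3.49 (SE 0.28, edgeR adjusted p = 2.8e-10) and the log2 difference of Trpm1 was -1.95 (SE 0.35, edgeR adjusted p = 4.2e-05). Given as counts with no test, Aox3 had 23 in EpiSCs, Tlx2 17, Pglyrp1 7 and Aspa 55.

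Against EPL cells, which share the same EpiSC libraries, Ly6a (5.08 ± 0.28), Nkx1-2 (4.42 ± 0.45) and Crxos (3.12 ± 0.2) were higher in EpiSCs, and Trpm1 (-1.88 ± 0.37) and Pla2g4e (-1.68 ± 0.36) were lower. Over all tested genes 70.4% were called (39.1% higher, 31.3% lower). In a fit of only the 6 libraries compared, the same 5 members were called. Nkx1-2 and Crxos entered that fit only through their EpiSC libraries, so their values are a description. Scaling to the total count in place of TMM raised the median log2 of all tested genes by 0.26, 0.18 and 0.21 in EpiSCs against ground, naive and EPL cells. The share of calls that were higher went from 53.5% to 69.4%, from 55.6% to 67% and from 55.5% to 68.6%, and no called member lost its call against naive or EPL cells.

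Ly6a is also known from fibroblasts and from blood cells. In EpiSC libraries 1, 2 and 3 Ly6a was at 7.35, 8.14 and 10.8 CPM and the fibroblast markers summed to 2290, 2160 and 2720 CPM, so library 3 was highest in both and libraries 1 and 2 ran in opposite order. Blood and endothelial markers (9 genes) summed to 26.4 to 37.3 CPM in EpiSC libraries and to 12.3 to 38.7 CPM in the other groups. The part of either cell type in the Ly6a level was not tested.

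The lines differed in how much of these transcripts ground state cells held. Crxos, Ly6a and Pla2g4e were higher in D3, Tlx2 was higher in A2, and the other 5 did not pass the test. That is 4 of 9, beside 20.1% of all tested genes called between D3 and A2 in ground state (9.13% higher in D3, 10.9% lower). The count ran from 3 to 5 when each library was left out. The ground columns helped to choose the genes, so nothing is read from the count. Crxos had the largest difference, 57.6 ± 2.6 CPM (SD, n = 3) in D3 and 21.2 ± 1.3 (SD, n = 3) in A2, a log2 difference of 1.44 ± 0.09 (edgeR adjusted p = 4.99e-11). Ly6a had 113 ± 15 CPM in D3 and 56.1 ± 4.6 in A2 (log2 1.01 ± 0.12, edgeR adjusted p = 1.05e-06). Tlx2 was lower in D3, at 7.87 ± 0.98 CPM against 14.6 ± 2 (log2 -0.89 ± 0.17, edgeR adjusted p = 0.000516). The libraries of the 2 lines did not overlap for any of these 3 genes. The call of Pla2g4e (log2 0.45 ± 0.14, edgeR adjusted p = 0.0283) was lost without any 1 of 5 of the 6 ground libraries (all but D3 library 3). Trpm1 was at 180 ± 2.3 CPM in D3 and 133 ± 12 in A2, without overlap, and did not pass (edgeR adjusted p = 0.0533).

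In naive cells the lines differed in Trpm1, which was 0.54 ± 0.077 CPM in D3 and 2.9 ± 0.42 in A2 (SD, n = 3), a log2 difference of -2.41 ± 0.41 (edgeR adjusted p = 0.000103). Ly6a and Pla2g4e did not pass. No naive library reached the filter's 10 counts of Crxos (12 in A2 and 19 in D3, summed) or Nkx1-2 (6 and 11). These 2 are given with no test. Over all tested genes 29.9% were called (14.5% higher in D3, 15.4% lower). In EPL cells Ly6a had 1 count in D3 against 13 in A2, a ratio of 14.5 (95% counting interval 2.18 to 616). No EPL library reached the filter's 10 counts of Ly6a, so this difference is given with no test. Over all tested genes 29.4% were called there (15.6% higher in D3, 13.8% lower). Aspa had 1 EPL count in D3 and 10 in A2, given with no test.

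The steps out of ground state helped to choose the genes, so how they differ between the lines is given as a description. From ground to naive cells the log2 difference of Trpm1 was -5.52 ± 0.22 in A2 and -8.36 ± 0.28 in D3, a gap of -2.84 ± 0.44. From ground to EPL cells the gap between D3 and A2 was -4.45 ± 0.97 for Ly6a and -1.51 ± 0.35 for Crxos. Crxos ended at 0.305 CPM in D3 EPL cells and 0.313 in A2, while its ground levels differed as given above. Over all tested genes 3.06% were called for a line difference in the step to naive cells (1.51% with the higher value in D3, 1.56% with the lower) and 13.3% in the step to EPL cells (7.25% and 6.06%), and nothing is read from the members' count beside these.

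**Figure D3:**
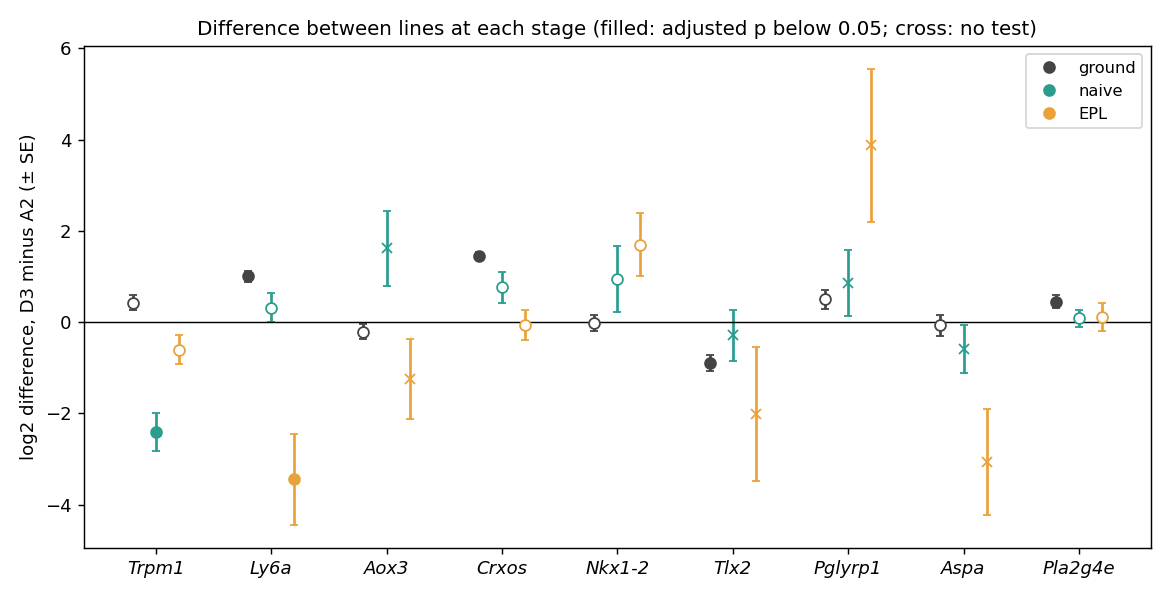
Log2 difference of D3 minus A2 (vertical axis) with its standard error for the 9 genes (horizontal axis) at the ground, naive and EPL stages. Filled points passed an adjusted p below 0.05 and crosses are fitted values given with no test; Crxos and Ly6a lie above 0 in ground state, Trpm1 lies at -2.41 in naive cells, and genes with few counts have wide error bars. The filled Ly6a point at the EPL stage rests on 1 count in D3 and 13 in A2 and is not read as a test. The open points of Crxos and Nkx1-2 at the naive and EPL stages rest on few counts and are not read as tests either.

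Genes next to members were also mostly lower after the inhibitors were taken away. Of 83 genes within 100 kb, 42 were tested, and 30 fell and 2 rose from ground to naive cells (edgeR), beside 31.8% and 31.7% of all tested genes. Their median log2 difference was -0.49, against 0.01 over all. Neighbours share a region and are not independent, and Obox6 and Gm37092 among them passed the filter only through ground libraries. The Tlx2 region alone gave 15 falls among 16 tested genes, and without it 15 of 26 fell (57.7%), a view added after the data were seen. In EPL cells 31 of 42 fell and 2 rose, beside 33.2% and 33.1%.

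Around Tlx2 the falls of at least 2-fold from ground to naive cells reached from Dqx1, 1006 bases away (log2 -1.37 ± 0.14), to Wdr54 at 79068 bases (-1.21 ± 0.18). Dok1, an adaptor of tyrosine kinase signalling, had 45.4 ± 2.1 CPM in A2 ground cells and 7.19 ± 1 in A2 naive cells (log2 over both lines -2.8 ± 0.09, edgeR adjusted p = 1.27e-17). M1ap, a meiosis gene, went from 31 ± 4.3 to 4.57 ± 0.43 CPM in A2 (-2.82 ± 0.09, edgeR adjusted p = 6.36e-17). Gm37092 (-5.57), Loxl3 (-1.7), Rtkn (-1.45), Pcgf1 (-1.26) and Gm42688 (-1.13) fell as well. The deepest of these, Gm37092, lies 4306 bases from Tlx2 and had 0.0548 CPM in A2 naive cells against 2.29 in ground state. It passed the filter only through ground libraries.

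Near Crxos the homeobox gene Obox6, 42939 bases away, fell by 4.16 on the log2 scale (SE 0.39). Obox6 passed the filter only through ground libraries, so its p-value is not given. It had 3.04 ± 0.5 CPM in D3 ground cells and 0.902 ± 0.43 in A2. Ehd2, a membrane trafficking gene, rose there (1.1 ± 0.2). Beside Ly6a, Ly6c1 (-3.59 ± 0.69) and Ly6e (-1.01 ± 0.06) fell, Ly6e from 133 ± 12 to 66.9 ± 4.7 CPM in A2 and Ly6c1 at 0.736 CPM or less. Beside Nkx1-2, Lhpp, a phosphatase gene (-1.91 ± 0.09), and Oat, which encodes ornithine aminotransferase (-1.4 ± 0.05), fell. Fgfr2, the receptor gene whose model contains Nkx1-2, rose by 3.4 ± 0.13 (edgeR adjusted p = 3.37e-16), from 1.36 ± 0.08 to 14.8 ± 2.1 CPM in A2. That model runs over chr7:130162451-133123350, and its reads may lie far more than 100 kb from Nkx1-2. Near Aspa the channel gene Trpv3 fell in the mean of both lines (-1.42 ± 0.4), at 0.565 CPM or less in every group. It went from 0.565 to 0.0941 CPM in D3 and only from 0.53 to 0.434 in A2. No neighbour of Trpm1, Aox3, Pglyrp1 or Pla2g4e within 100 kb was called with a change of at least 2-fold from ground to naive cells.

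**Figure D4:**
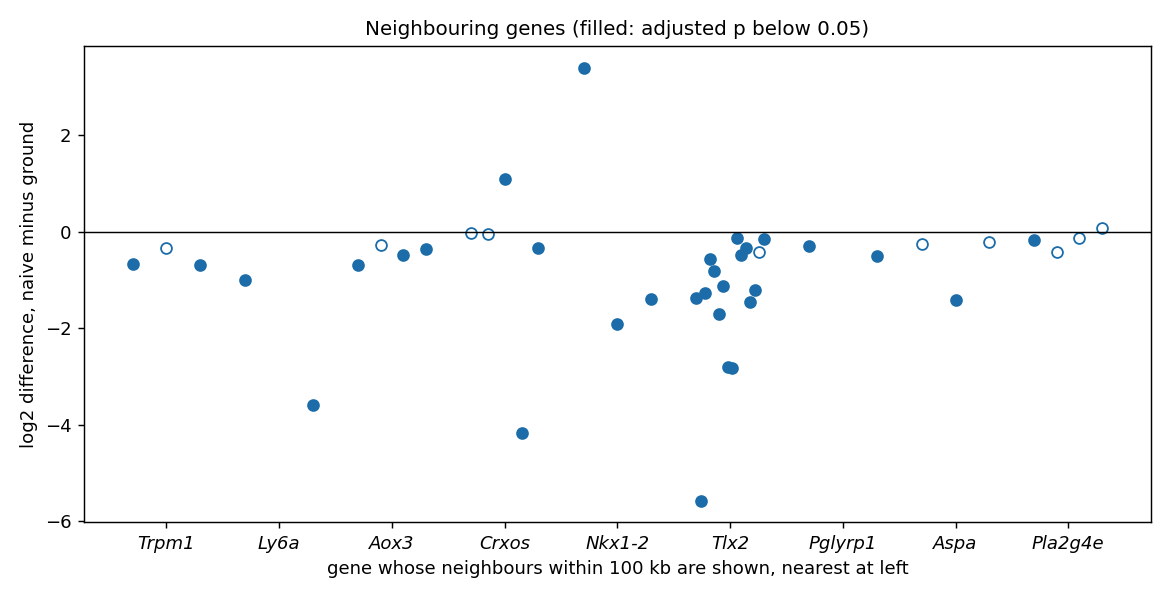
Log2 difference of naive minus ground, mean of both lines (vertical axis), for the 42 tested genes within 100 kb of each of the 9 genes (horizontal axis), the nearest at the left of each column. Filled points passed an adjusted p below 0.05; 15 of 16 neighbours of Tlx2 fell, and the point at 3.4 is Fgfr2.

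Relatives of the 9 genes and the pathways they are known from moved in both directions. Over all lists, 125 of 166 genes were tested, and 34 rose and 56 fell from ground to naive cells (72% called, beside 63.5% of all tested genes). The median log2 difference of the listed genes was -0.23. Of all tested genes 31.7% rose and 31.8% fell in this step, the shares to set beside each list below.

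Among the other 6 tested channels of the Trpm family 1 rose and 4 fell, the rise being Trpm2 (1.52) and the falls Trpm6 (-3.13), Trpm5 (-1.08), Trpm7 (-0.64) and Trpm4 (-0.36). Trpm2 and Trpm6 lay under 1 CPM in ground and naive cells of both lines, so these values rest on few counts. Of the factors and targets of MITF, which is known to drive Trpm1 in melanocytes, 2 of 13 rose and 7 fell. Mitf itself fell by 1.53 on the log2 scale (SE 0.07, edgeR adjusted p = 3.72e-14), with 34.4 ± 2 CPM in ground and 12.7 ± 1.1 in naive cells of A2, and 45.6 ± 3.2 and 14.7 ± 2.6 in those of D3. It was at 5.33 and 5.23 CPM in A2 and D3 EPL cells. Gpnmb (-2.92), a melanosome and lysosome glycoprotein gene, Mlana (-0.88), a melanosome gene, and Fnip1 (-0.47) fell too. The rises were Tfe3 (0.22 ± 0.05) and Tfec, which had no count in ground state.

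Of 7 tested Ly6 relatives Ly6c1, Ly6e and Ly6k (-1.62) fell and Ly6h rose (2.57). Apart from Ly6e, these lay under 1 CPM in ground and naive cells of both lines. Of the 13 tested interferon response genes, the class that Ly6a belongs to in many cells, 3 rose and 4 fell. Stat2 (-1.25), Irf1 (-0.87) and Irf9 (-0.67) were among the falls, while Gbp2 (4.03), Oasl2 (1.9) and Bst2 (1.62) rose. In the aldehyde oxidase family 1 of 3 tested genes fell, Aox1 (-0.68), which lies in the same gene cluster as Aox3. The 4 tested group 4 phospholipases, Pla2g4a, Pla2g4b, Pla2g4c and Pla2g4f, had log2 values between -0.41 and 0.24 (edgeR adjusted p from 0.137 to 0.876), against -2.47 for Pla2g4e, and 1 was called when A2 ground library 3 was left out. The other peptidoglycan recognition genes were not tested, as all 3 failed the filter.

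Among 12 tested genes of N-acetylaspartate metabolism 3 rose and 4 fell. Nat8l, which encodes the enzyme that makes N-acetylaspartate, rose by 2.46 ± 0.19 (edgeR adjusted p = 1.62e-10), opposite to Aspa, which encodes the enzyme that splits it. Naalad2, encoding a peptidase of the same pathway, fell by 3.06 (SE 0.21), and Acss2, which encodes the enzyme that turns acetate into acetyl-CoA, fell by 1.58 (SE 0.1). Folh1 (-1.22, under 1 CPM in every group) and Acy3 (-0.36) also fell, and Rimkla and Rimklb (both 0.52) rose.

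Of 6 tested NK-like homeobox relatives 1 rose and 2 fell, the falls being Tlx1 (-2.06) and Nkx6-2 (-0.41). Of 6 Crx, Otx and Obox relatives Obox6, Pitx1 (-2.53), Gsc (-2.5) and Otx1 (-0.76) fell. The 2 rises included Otx2 (2.72), a factor of the later epiblast. Of 19 tested Wnt and beta-catenin targets 12 fell and 4 rose, led by Cdx1 (-4.74), Axin2 (-3.12) and Cdx2 (-3) among the falls, while Lef1 (2.92), Lgr5 (2.91), Nkd2 (1.56) and Bmp4 (1.56) rose. Of 12 tested BMP targets 6 rose, led by Id1 (3.35), and Smad9 (-2.37), Id4 (-1.81) and Smad7 (-0.44) fell. Of 16 naive pluripotency factors 12 fell and Nr0b1 rose (0.75), and all 12 formative epiblast genes rose.

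Across the 21 libraries, each gene's pattern was set beside that of 11470 other genes (those reaching a group mean of 5 CPM), by Pearson's r of log2 CPM with a prior count of 2. The libraries share their groups and so do the depths, and r is a description with no test. The most alike were Lonrf1 (r = 0.9819) for Trpm1, Zc3hav1 (0.9893) for Ly6a, Dsg2 (0.9831) for Aox3, Hspb8 (0.9838) for Crxos, Src (0.9855) for Nkx1-2, Sccpdh (0.9914) for Tlx2, Grsf1 (0.9783) for Pglyrp1, Slc25a20 (0.9781) for Aspa and Wdr5 (0.9905) for Pla2g4e. The next were Pip5k1b, Tnfrsf21, Klhl22, Plekhg3, Plekhg3 again, Tnrc18, Hps6, Adgrg6 and Dnajc6 in the same order, at 0.9757 or above. Their steps were far shallower: Zc3hav1, an antiviral zinc finger gene, had 104 CPM in A2 ground cells and 16.2 in A2 naive cells, and Wdr5, a subunit of histone methyltransferase complexes, 651 and 401. Between members r ran from 0.612 to 0.97 over 36 pairs, with a median of 0.909, as the choice of genes would give.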

How the data were processed

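RNA was measured by sequencing in 21 libraries made, per the labels' protocols, from column-purified, DNase-treated total RNA with an Illumina TruSeq kit that does not mark strand. The authors deposited raw counts of reads for each Ensembl gene in a single table. Alignment and counting tools were HISAT2, SAMtools and featureCounts on GRCm38, per the submitters' processing notes. For their versions, the annotation and the strand setting, the sources used here say nothing. All 39396 identifiers matched GENCODE release M21, which gave coordinates.

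The members, gene lists and tests were chosen with earlier results of these data known. Genes were filtered with filterByExpr (minimum count 10, minimum total 15), which kept 16575 genes holding at least 99.89% of each library's counts. Counts were scaled by TMM, and 1 quasi-likelihood model (edgeR 4.0.16, R 4.3.3) with a mean per group was fitted to all libraries. P-values were Benjamini-Hochberg adjusted over all genes tested and called below 0.05. For members, contrasts with ground state are given with no test, as are comparisons outside ground state of the 4 that passed the filter only through it. CPM are counts over TMM library size, shown as mean ± SD (n = 3). Folds are ratios of summed counts with a 95% exact interval, or a bound from 3 counts over a group at 0. Standard errors were derived from each fitted difference and its F value. The fit was tested on simulated data.

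Named genes were all members, the 2 most alike genes of each, up to 4 called genes per list with at least 1 CPM, and neighbours within 100 kb called with at least 2-fold change. Members of a list named beyond these, where few were called, were chosen after their values were seen, and some listed genes are not reported here. Alternatives were RLE and total-count scaling, no filter, a stricter filter (1 CPM and 10 counts in 3 libraries), a replicate block, a fit of only the groups compared, DESeq2 1.42.0, and leaving out each library. The series calls its samples paired without saying how. No columns were left unused, and no library was dropped.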

Additional observations from a re-analysis of the deposited data

Results flagged for a closer look

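In 3 cases a step out of ground state differed between the lines. These steps helped to choose the genes, so the values are a description. For Trpm1 from ground to naive cells, D3 minus A2 was -2.84 on the log2 scale (SE 0.44). All 3 D3 naive libraries (0.457 to 0.61 CPM) lay below all 3 A2 naive libraries (2.49 to 3.33 CPM), while in ground state the D3 libraries (178 to 182 CPM) lay above the A2 libraries (119 to 140 CPM), and the value ran from -2.95 to -2.71 when each library was left out. For Ly6a from ground to EPL cells it was -4.45 (SE 0.97), which rests on 1 count in D3 EPL cells and 13 in A2. For Crxos from ground to EPL cells it was -1.51 (SE 0.35), with 17 EPL counts in D3 and 16 in A2. Groups of 3 libraries are too small for a check of single outlying libraries.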

How the results depend on the processing

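With RLE size factors, the stricter filter and DESeq2, all 30 calls of single members kept their direction and their side of the threshold. These and the counts below include members that entered the fit only through ground state, which the report gives as counts with no test, and differences between lines in steps out of ground state. They also include the EpiSC comparisons of Crxos and Nkx1-2 and the Ly6a difference between lines in EPL cells. In a fit of only the groups compared 21 of the 30 could be fitted and all 21 kept theirs, since the filter then dropped the members with the fewest counts: 3 members were called between EPL and naive cells, 5 between EpiSCs and EPL cells, and 0 between D3 and A2 EPL cells. Between D3 and A2 EPL cells, where the count was 2, it was 1 under total-count scaling, 4 with no filter and 1 with a replicate block. Without the filter 4 members differed between lines in the step from ground to EPL. The cause of these shifts with scaling, filter and block was not tested. Leaving out 1 library gave 1 to 2 members between the lines in naive cells, 0 to 3 in EPL cells and 1 to 3 for the line difference in the step to EPL, and no member changed direction. With the region of Tlx2 left out, a choice made after seeing the data, 17 of 26 neighbours were called in naive and 18 in EPL cells, where fewer genes were tested. The replicate numbers showed no shared deviation over all groups: deviations of 63 same-number pairs had correlations from -0.2 to 0.36 (median -0.019), and 5 of 21 libraries correlated best with their own number. These pairs ran across lines and stages together, so a pairing within a line is not excluded. With the replicate block 29 of 30 member calls were kept, and Aspa between the lines in EPL cells was lost. Depth limits what low members can show: 0 counts over 3 libraries allow a level of up to 3 counts.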
